A study of Rattus norvegicus with 2 samples.

Results

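Fcrl6 natural killer-like cells are a small group of lymphocytes among the CD45-sorted leukocytes of the infarcted rat heart. They were picked from raw counts of unique molecular identifiers (UMIs, tags that mark single captured transcripts). A cell had to have 200 or more genes and at most 20% mitochondrial UMIs, at least 1 UMI of Fcrl6 and at least 1 of Nkg7, and no UMI of Klra22, Cd8b, Rag1 or Cd79b. The C1q chains C1qa, C1qb and C1qc together could reach 2 UMIs, and S100a8 with S100a9 had to stay under 2% of the UMIs. Of 29949 barcodes, 29688 passed the filters on genes and mitochondrial UMIs and 328 met the whole rule. These are called Fcrl6 cells below.

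The series asked how a patch placed on the heart after a myocardial infarction (MI) changes cardiac immune cells. The labels give 2 groups of wild-type (wt) rats with 1 sample each, MI and MI+PUR-hAESC, the second with a polyurethane scaffold carrying human amniotic epithelial stem cells, both taken 7 days after the operation. Left ventricles with infarct and border tissue were digested, suspensions stained with propidium iodide and a CD45 antibody were sorted for CD45+ cells, and 3′ libraries were made on the 10x Genomics platform. Barcode suffixes 1 and 2 mark a library each, here library 1 and library 2. Neither suffix could be matched to MI or MI+PUR-hAESC, and the number of animals is not given in the sources used here, so a difference between library 1 and library 2 is given as such and not as an effect of treatment. With 1 library on each side there is no replicate check and no test. All intervals are exact 95% intervals (Poisson for counts, binomial for shares) and cover counting error only.

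Natural killer (NK) cells are lymphocytes that kill stressed or infected cells without a rearranged antigen receptor. They read surface ligands through lectin-like receptors of the Klr family and through Ncr1, signal through the adaptors Tyrobp and Fcer1g, and carry perforin and granzymes in granules. The rat Fcrl6 gene is also listed as Gp42 in RefSeq, the name of a glycoprotein first known from the surface of interleukin-2-activated rat NK cells. Sept5 encodes a septin, a filament-forming GTPase, and Ccl1 a chemokine that acts on the receptor Ccr8.

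The 250 bases before the annotated start of Fcrl6 and of 3 further genes among those most above neighbouring NK-like cells (Rasl10a, Il4 and Ccl1) are shown. Fcrl6 chose the cells, so its higher level is no result. Whether these genes are controlled together was not tested. The sequences are from RefSeq on build GRCr8, at chr13:87604658-87604907 on the minus strand for Fcrl6, chr14:84168891-84169140 on the plus strand for Rasl10a, chr10:38277550-38277799 on the minus strand for Il4 and chr10:67628741-67628990 on the minus strand for Ccl1. All are written 5′ to 3′ along the gene, with matches to searched motifs in capitals.
Fcrl6: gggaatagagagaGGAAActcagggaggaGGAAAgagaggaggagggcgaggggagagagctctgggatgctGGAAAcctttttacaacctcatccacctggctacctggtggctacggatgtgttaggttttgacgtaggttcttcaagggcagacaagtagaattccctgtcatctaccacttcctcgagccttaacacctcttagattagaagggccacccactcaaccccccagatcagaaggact
Rasl10a: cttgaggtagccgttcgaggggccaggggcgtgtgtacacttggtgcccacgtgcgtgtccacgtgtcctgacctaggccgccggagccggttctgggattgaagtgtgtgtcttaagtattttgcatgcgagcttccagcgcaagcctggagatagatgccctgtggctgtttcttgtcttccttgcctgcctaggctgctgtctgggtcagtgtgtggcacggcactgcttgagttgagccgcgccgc
Il4: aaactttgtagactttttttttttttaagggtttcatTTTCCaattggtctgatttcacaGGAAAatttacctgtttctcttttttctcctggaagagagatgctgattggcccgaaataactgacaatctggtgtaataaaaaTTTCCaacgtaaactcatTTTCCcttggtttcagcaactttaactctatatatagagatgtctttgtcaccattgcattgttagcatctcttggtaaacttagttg
Ccl1: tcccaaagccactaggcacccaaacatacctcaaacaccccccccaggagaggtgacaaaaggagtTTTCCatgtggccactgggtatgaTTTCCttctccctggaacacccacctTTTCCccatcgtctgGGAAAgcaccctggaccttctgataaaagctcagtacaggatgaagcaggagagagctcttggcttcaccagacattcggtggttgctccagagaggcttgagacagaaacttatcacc

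The motifs were searched on both strands and do not overlap each other in these windows. The NFAT core GGAAA was the one found, with 3 matches before Fcrl6, 4 before Il4, 4 before Ccl1 and 0 before Rasl10a. At least 1 match stood in 56.9% and 3 or more in 7.14% of the 33469 listed windows of this length. The Runx core TGTGGT (14.5% of all windows), the T-box motif TCACAC (11.6%) and the AP-1 motif TGANTCA (6.34%) had no match in the 4 windows.

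Library 1 held 147 Fcrl6 cells, 1.04% of its 14137 filtered cells (0.879 to 1.22%), and library 2 held 181, 1.16% of 15551 (1.00 to 1.35%). The shares lay close to each other and their intervals overlapped. When each cell was first thinned to 1500 UMIs the shares were 0.802% in library 1 and 0.737% in library 2, the other way round. Fcrl6 cells had a median of 4735 UMIs and 1878 genes in library 1 and of 4837 UMIs and 1889 genes in library 2. The comparison populations described below had medians of 4471 and 4934 UMIs (NK-like), 4929 and 5504 (T-like) and 5301 and 5840 (Klra22-positive). Scrublet, a doublet caller, marked 4 of the 147 and 6 of the 181, against 4.07% and 6.82% of all filtered cells. The libraries shared 71 barcode sequences, and 1 Fcrl6 cell carried one of them.

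Fcrl6 itself chose the cells, so its values describe the rule. The median was 3 UMIs per cell in library 1 and 4 in library 2, with highest values of 35 and 26. Exactly 1 Fcrl6 UMI was found in 43 cells of library 1 and 51 of library 2, together 28.7% of the Fcrl6 cells. Before the rule's other steps 555 cells had an Fcrl6 UMI. The absence of Klra22 removed most of the cells lost, 121, while Nkg7 removed 31, Cd8b 35, Rag1 1, Cd79b 14, the C1q limit 17 and the S100 limit 8.

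The label natural killer-like fitted the markers that the rule did not use. Tyrobp stood at 5944 UMIs per 1000000 UMIs of the summed cells (CPM) in library 1 and 5631 in library 2, and was found in 147 of 147 and 180 of 181 cells. Klrb1a, the rat NKR-P1A receptor, was found in 96.6% and 95.6% of the Fcrl6 cells, against 7.94% and 9.50% of B-like cells (3 or more Cd79b UMIs and no Fcrl6 UMI), which should lack the gene. B-like cells were shallower, with a median of 3123 and 3152 UMIs. Ncr1, the activating receptor NKp46, was found in 66.0% and 62.4%, against 1.59% and 3.28% of the B-like cells. Klrd1, the CD94 chain, stood at 1123 and 809 CPM. Tbx21, the T-bet factor of NK and type 1 lymphocytes, stood at 109 and 142 CPM, while its relative Eomes was low at 22.1 and 9.66 CPM. Of the proposed markers Fcrl6, Sept5 and Ccl1, the last pair was not in every cell: Sept5 was found in 10.2% (5.82 to 16.3%) and 41.4% (34.2 to 49.0%) of the Fcrl6 cells and Ccl1 in 12.2% and 34.8%.

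**Figure D1:**
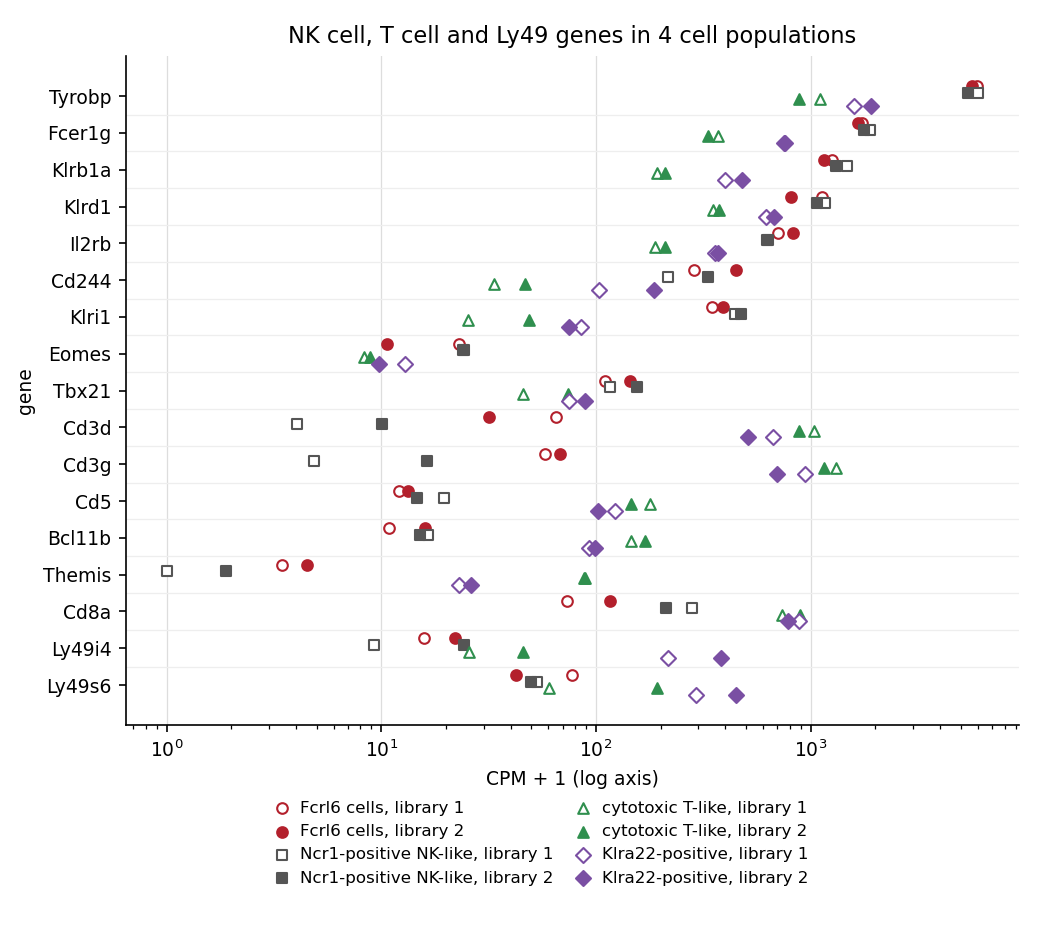
Levels of NK cell genes (top), T cell genes (middle) and Ly49 receptors (bottom) in Fcrl6 cells and 3 comparison populations, as CPM plus 1 on a log axis, with 1 point per library. Fcrl6 cells lie beside the Ncr1-positive NK-like cells for Tyrobp, Fcer1g and Klrb1a and far below the T-like and Klra22-positive cells for Cd3d and Cd3g.

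Most Fcrl6 cells lacked transcripts of the CD3 chains. Cd3e, a chain of the CD3 complex that T cells need for antigen signalling, was found in 10 of 147 cells of library 1 (6.80%, 3.31 to 12.2%) and 14 of 181 of library 2 (7.73%, 4.29 to 12.6%). These shares lay below those of the B-like cells, 11.97% and 15.84% (median of 3123 and 3152 UMIs), so a Cd3e UMI alone does not set these cells apart from background. The other CD3 chains, given next, were concentrated in the same cells. At 1500 UMIs per cell 12 of 326 cells had a Cd3e UMI (3.68%). No UMI of Cd3e, Cd3d or Cd3g was found in 283 of the 328 cells, and 18 cells held 5 or more of the 3 genes together.

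The 24 Cd3e-positive cells were deeper, with a median of 8936.5 UMIs against 4710.5 in the 304 others, and 14 of the 24 also had an Ncr1 UMI. Scrublet had marked 1 of the 24 and 9 of the 304. Of 6029 genes tested, 356 (5.9%) differed at least 2-fold on the scale of CPM plus 10: 205 (3.4%) were at least 2-fold higher and 151 (2.5%) at least 2-fold lower in the Cd3e-positive cells. The partner chain Cd3d stood at 330 against 7.53 CPM and Cd3g at 432 against 14.5 CPM. S1pr1, which guides lymphocytes out of tissue, stood at 120 against 3.47 CPM, carried by 6 of the 24 cells. Gimap4, a GTPase of lymphocyte survival, stood at 165 against 11.6 CPM. NK genes were lower in the same cells: the 25 genes of the NK identity list summed to 9622 CPM against 14590 CPM, and 19 of 20 tested were lower, 4 of them past 2-fold. Nrgn, which encodes the calmodulin-binding protein neurogranin, stood at 35.7 against 206 CPM and Klrg1, an inhibitory receptor of mature NK cells, at 8.91 against 52.1 CPM. The dendritic list, with class II genes, summed to 3873 CPM in the Cd3e-positive and 1595 CPM in the other cells, and its part in these differences was not tested.

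The nearest of the 3 comparison populations was 1754 NK-like cells. They were chosen with Ncr1 and Nkg7 UMIs and no Fcrl6, Cd3e, Klra22 or Cd8b UMI, under the same limits for other cell types. All kinds of NK cell among them were pooled, so whether a part of them lies closer to the Fcrl6 cells was not tested. Fcrl6 cells needed no Ncr1 UMI and could hold Cd3e UMIs. The part of this unequal choice in the differences below was not tested. A gene was tested when it reached 20 CPM on either side, and called when CPM plus 10 differed at least 2-fold. Of 5640 genes 73 (1.29%) were called, 50 (0.887%) were higher and 23 (0.408%) lower in the Fcrl6 cells. In library 1 alone 33 were higher and 46 lower, and in library 2 alone 79 and 45. The higher genes were led by Sept5, Rasl10a, Il4 and Ccl1. The lowest were Sparc, Gzma, Focad and Fabp4, followed by Gzmk, Gzmm, Klrg1 and Prf1. Only genes on the same side in both libraries were ranked here, so that agreement was set in advance.

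Sept5 stood at 30.7 CPM in library 1 (19.9 to 45.4) and 201 CPM in library 2 (176 to 229), against 1.38 and 25.8 CPM in the NK-like cells. It was higher in the Fcrl6 cells in both libraries, 8.05-fold in all (6.55 to 9.92), on 254 UMIs. Septins as a family did not move with it: of 7 septin genes tested Sept5 alone passed 2-fold, and Sept1, Sept7 and Sept6 differed from the NK-like cells by a log2 of -0.09, 0.13 and -0.30. Rasl10a, a small Ras-like GTPase, stood at 51.6 and 175 CPM against 3.59 and 25.9 CPM, 7.20-fold higher (5.87 to 8.86). Both were also higher in library 2 than in library 1 within the NK-like cells.

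Il4 encodes the type 2 cytokine interleukin 4. It stood at 39.3 and 109 CPM in the Fcrl6 cells against 4.14 and 15.03 CPM, 7.44-fold higher (5.74 to 9.67). A UMI of Il4 was found in 11.6% and 35.4% of the Fcrl6 cells, against 1.23% and 4.41% of the NK-like cells and 0 of 819 and 14 of 1736 B-like cells. The type 2 cytokines Il5 and Il13 did not accompany it: Il5 had 0 UMIs among 1951487, which allows up to 3 counts (the limit used here for a count of 0), and Il13 had 1. Gata3, the factor that supports type 2 cytokine genes in T cells, stood at 98.4 and 193 CPM against 77.9 and 111 CPM.

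Ccl1 stood at 253 and 496 CPM against 42.5 and 131 CPM, 4.10-fold higher (3.72 to 4.52). A few cells carried much of it. In library 1, 18 cells held its 206 UMIs and the top pair held 91 and 67. In library 2, 63 cells held 565 UMIs and the highest cell 68. Ccr8, the Ccl1 receptor, had 0 UMIs in library 1 and 8 in library 2.

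Further genes higher than in the NK-like cells were Tigar, a regulator of sugar metabolism (79.4 against 14.4 CPM), Ccdc184 (56.4 against 8.47 CPM), Rgs12, which damps G protein signalling (128 against 29.7 CPM), Slc22a23, a member of the organic ion transporter family (55.3 against 9.77 CPM), and Adam19, a membrane metalloprotease (280 against 81.9 CPM). Ky stood at 60.5 against 16.7 CPM and Ap1b1, a subunit of the AP-1 clathrin adaptor, at 97.4 against 33.2 CPM. Ap1b1 was past 2-fold in library 2 (147 against 40.2 CPM) and not in library 1 (28.3 against 22.4 CPM). Slc22a23 had 0 UMIs in the 733 NK-like cells of library 1, which allows up to 3 counts. Cd3g was among the leading genes as well (62.5 against 10.9 CPM), but the NK-like cells had been chosen without Cd3e. Cd28, a costimulatory receptor, was 2.47-fold higher (2.08 to 2.92).

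**Figure D2:**
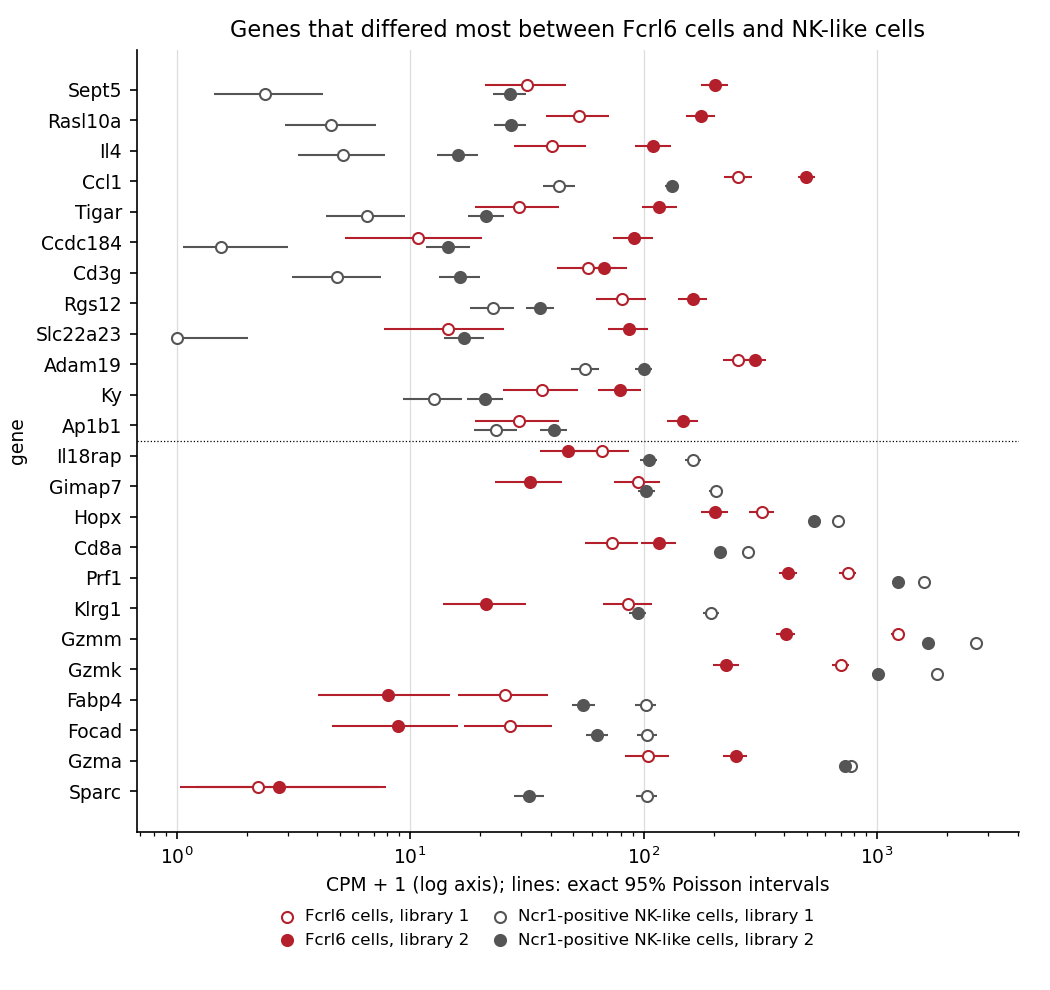
The 12 genes most above (top) and the 12 most below (bottom) the Ncr1-positive NK-like cells in Fcrl6 cells, as CPM plus 1 on a log axis with exact 95% Poisson intervals, 1 point per library and population. Sept5, Rasl10a and Il4 lie higher in library 2 in both populations, while Gzmk, Gzmm, Prf1 and Klrg1 lie lower in it.

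Transcripts of the killing machinery were lower than in the NK-like cells taken as a whole. Whether a part of the NK-like cells has equally low levels was not tested. Of 17 tested genes of the cytotoxic granule list 13 were lower and 4 higher, with a median log2 ratio of -0.16 against 0.01 for all genes tested. Past 2-fold were Prf1, Gzma, Gzmk, Gzmm and Gzmbl3, all lower, and Tnfsf10, which was higher. Prf1, the pore-forming perforin, stood at 746 and 415 CPM against 1595 and 1226 CPM, 2.48-fold lower (2.33 to 2.64).

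Gzmm stood at 1224 and 405 CPM against 2663 and 1651 CPM, 2.75-fold lower (2.60 to 2.90). Gzmk stood at 698 and 225 CPM against 1803 and 1005 CPM, 3.12-fold lower (2.91 to 3.35). Gzma stood at 103 and 247 CPM against 771 and 728 CPM, 3.98-fold lower (3.58 to 4.44). Each granzyme was lower in both libraries, Gzmm and Gzmk most in library 2 and Gzma most in library 1. The share of cells with a UMI showed the same for Gzmm, found in 51.7% and 22.7% of the Fcrl6 cells and 87.4% and 67.2% of the NK-like cells.

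Not all granule genes were lower. Gzmbl2, of the granzyme B-like family, stood at 385 and 814 CPM against 480 and 698 CPM, lower in library 1 and higher in library 2. Tnfsf10, the death ligand TRAIL, stood at 124 and 220 CPM against 45.9 and 86.2 CPM, 2.56-fold higher (2.24 to 2.92), and was found in 37.4% and 64.1% of the Fcrl6 cells against 16.4% and 29.7%. Genes of the granzyme B-like, Ly49, Klr and RT1 families are close copies of each other, and how reads that match several copies were counted is not given in the sources used here, so single values of these families are uncertain.

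Surface receptors of NK cells differed little. Of 22 tested genes of the NK identity list Klrg1 alone passed 2-fold, with 84.8 and 20.2 CPM against 194 and 93.6 CPM, and the list's median was -0.10. Klrd1 was 1123 and 809 CPM against 1170 and 1068 CPM. Cd8a, a coreceptor that many rat NK cells carry, stood at 72.6 and 115 CPM against 280 and 211 CPM, with its partner Cd8b excluded on both sides. Il18rap, a chain of the interleukin 18 receptor, stood at 54.3 against 127 CPM. Hopx (250 against 590 CPM) and Gimap7 (57.4 against 142 CPM) were also more than 2-fold lower. Focad stood at 15.4 against 78.1 CPM, with UMIs in 28 of the 328 and 323 of the 1754 cells.

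The matrix gene Sparc (1.54 against 59.2 CPM) and the fatty acid binding protein Fabp4 (14.3 against 72.7 CPM) were lower too, and rested on 26 and 36 of the 1754 NK-like cells, with 237 and 274 UMIs in the highest cell. The 7 genes of the endothelial and fibroblast list summed to 262 CPM in the NK-like cells of library 1, 10.6 CPM in those of library 2, and 8.61 and 7.03 CPM in the Fcrl6 cells.

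Gene groups of tissue residence, activation and division leaned upward against the NK-like cells. Of all 5640 genes tested 2918 were higher and 2722 lower. Of the 16 tested genes of the residency list 13 were higher, with a median log2 ratio of 0.38, and Tnfsf10 alone passed 2-fold. Xcl1, a chemokine that draws dendritic cells, was found in 94.6% and 97.2% of the Fcrl6 cells against 71.6% and 85.6% of the NK-like cells, at 1224 and 1710 CPM against 673 and 1286 CPM. Whether a part of the NK-like cells holds as much Xcl1 was not tested. Rgs1, which limits chemokine signalling, was 1.66-fold higher (1.56 to 1.75). Ahr, a sensor of aromatic ligands, stood at 155 and 208 CPM against 123 and 125 CPM.

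Of 18 immediate early and stress genes 17 were higher (median 0.29) and 0 passed 2-fold. Jund, a subunit of AP-1, stood at 2372 and 3099 CPM against 1513 and 1642 CPM. All 8 tested division genes were higher with the libraries pooled (median 0.48). Ube2c, an enzyme of mitotic exit, was past 2-fold at 61.5 and 35.1 CPM against 13.8 and 15.03 CPM. The division list summed to 798 and 1161 CPM against 739 and 758 CPM, so the gap was small in library 1. Within the Fcrl6 cells it summed to 1676 CPM in the Cd3e-positive and 924 CPM in the other cells. A Mki67 UMI was found in 12.2% and 21.0% of the Fcrl6 cells and in 11.9% and 16.7% of the NK-like cells. Of 21 interferon response genes 19 were lower (median -0.19), of 10 class I and immunoproteasome genes 10 were lower (median -0.17), and none of either list passed 2-fold.

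A further population was 3221 cytotoxic T-like cells, with Cd3e and Nkg7 UMIs and no Fcrl6 or Klra22 UMI. Of 5821 genes 447 (7.68%) were called, 284 (4.88%) were higher and 163 (2.8%) lower in the Fcrl6 cells. Cd3e was part of the choice of the T-like cells, so the low Cd3d, Cd3g, Cd5, Themis and Bcl11b in the Fcrl6 cells are tied to that choice. Of 21 tested NK identity genes 13 were at least 2-fold higher. Kir3dl1, a receptor of the immunoglobulin-like KIR family, stood at 138 and 171 CPM against 2.95 and 7.33 CPM. Sema6d, a semaphorin, stood at 198 and 289 CPM against 5.22 and 15.7 CPM. Cd24 was 18.3-fold higher (16.4 to 20.4) and Cck, which encodes the peptide cholecystokinin, 13.8-fold higher (11.9 to 16.1). These genes were shared with the NK-like cells, where Kir3dl1 stood at 79.0 and 97.7 CPM and Sema6d at 83.4 and 137 CPM. Of the other leading genes, Mcpt2 (0.51 against 62.0 CPM) came from 9 T-like cells with up to 653 UMIs in 1 cell.

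The last population was 407 Klra22-positive lymphocytes with Nkg7 but no Fcrl6 UMI. Klra22 is a receptor of the Ly49 family, the C-type lectins with which rodent NK cells read class I molecules. Of 5723 genes 232 (4.05%) were called, 148 (2.59%) were higher and 84 (1.47%) lower in the Fcrl6 cells. The 5 tested Ly49 genes beside Klra22 were all at least 2-fold lower. Klra22, itself a Ly49 gene, had split these populations, so the low Ly49 genes are tied to that choice. Against the NK-like cells, also chosen without a Klra22 UMI, 0 of 4 tested Ly49 genes passed 2-fold. Ly49i4 stood at 14.8 and 21.1 CPM against 216 and 379 CPM, and Ly49s6 at 76.2 and 41.3 CPM against 290 and 449 CPM. Cd3g (62.5 against 792 CPM) and Cd8a (97.4 against 821 CPM) were lower as well. Neither CD3 nor Cd8a had been used to choose the Klra22-positive cells. Cd8b, the partner of Cd8a, was excluded in the Fcrl6 cells alone, and the part of that choice in these differences was not tested. Rasl10a (123 against 8.31 CPM), Sept5 (130 against 9.30 CPM) and Il4 (79.9 against 5.65 CPM) were among the highest, as they were against the NK-like cells.

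Fcrl6 cells differed among themselves in Sept5. A Sept5 UMI was most frequent in the cells with the most Fcrl6 UMIs. In library 1 the share was 2.33% (1 of 43) at 1 Fcrl6 UMI, 0 of 23 at 2, 0 of 30 at 3 to 4, 4.55% (1 of 22) at 5 to 7 and 44.8% (13 of 29) at 8 or more, so it was low at every step below 8. In library 2 it was 21.6% (11 of 51), 35.3% (6 of 17), 32.3% (10 of 31), 53.2% (25 of 47) and 65.7% (23 of 35) over the same steps. The median UMI number was 4316 at 1 Fcrl6 UMI and 5250 at 8 or more in library 1, and 4563 and 5035 in library 2. Just outside the rule, NK-like cells with no Fcrl6 UMI had Sept5 in 0.546% and 5.68%. Across the 3361 cells with Nkg7 and without Cd3e, Klra22 and Cd8b UMIs, 82 held both Fcrl6 and Sept5, which is 26.97% of the Fcrl6-positive and 33.6% of the Sept5-positive cells. These shares were 10.2% and 50% (14 cells) in library 1 and 40.7% and 31.5% (68 cells) in library 2.

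**Figure D3:**
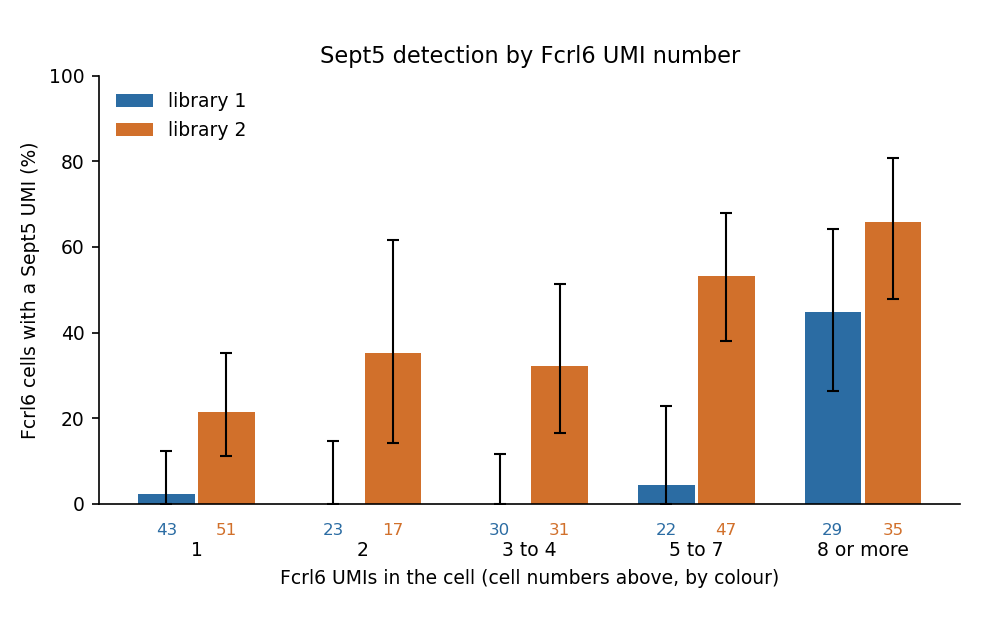
Share of Fcrl6 cells with a Sept5 UMI, by the number of Fcrl6 UMIs in the cell and by library, with exact 95% binomial intervals and the number of cells under each bar. In library 1 the share is 44.8% at 8 or more Fcrl6 UMIs and at most 4.55% below that, while in library 2 it is 21.6% already at 1 UMI.

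Sept5-positive Fcrl6 cells (15 in library 1, 75 in library 2) carried more Rasl10a and Il4 and less Gzmm, Gzmk, Prf1 and Klrg1 than the others. This split was chosen after the values were seen and is a description. Rasl10a stood at 212 against 25.7 CPM in library 1 and 283 against 65.4 CPM in library 2. Il4 stood at 186 against 15.7 CPM in library 1 and 152 against 65.4 CPM in library 2. Rasl10a and Il4 were thus each higher in the cells with Sept5 in both libraries. Whether Rasl10a and Il4 lay in the same cells was not tested.

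Gzmm stood at 266 against 1378 CPM in library 1 and 201 against 612 CPM in library 2. Gzmk stood at 124 against 791 CPM and at 120 against 331 CPM. Klrg1 had 0 UMIs in the 15 Sept5-positive cells of library 1, against 98.5 CPM in the others, and stood at 6.98 against 33.6 CPM in library 2. Ccl1 went opposite ways, with 26.6 against 290 CPM in library 1 and 608 against 384 CPM in library 2. In library 1 this was 3 against 203 UMIs, and the top pair of Fcrl6 cells there held 91 and 67 Ccl1 UMIs. The NK receptor chain Klrd1 was lower with the granule genes, by a log2 of -1.52 and -1.41. Other granule genes did not follow in both libraries: Gzma stood at 159 against 94.3 CPM in library 1 and 69.8 against 426 CPM in library 2, and Gzmbl2 at 372 against 387 CPM and 749 against 881 CPM. Xcl1 differed little, by a log2 of -0.21 in library 1 and -0.15 in library 2.

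Genes of other cell types and of division differed with Sept5 too. The class II gene RT1-Da stood at 4036 against 270 CPM in library 1 and 1580 against 357 CPM in library 2, and Cst3, abundant in dendritic cells, at 1159 against 159 CPM and 1245 against 157 CPM. Of 645 RT1-Da UMIs in library 1, 97.8% lay in 5 cells, and the top pair held 318 and 138. Sept5-positive cells held 456 of them, so the RT1-Da values of library 1, here and below, rest on very few cells. Top2a, a topoisomerase of dividing cells, stood at 257 against 37.1 CPM and 101 against 15.9 CPM. Without the cells in which macrophage, monocyte and dendritic genes exceeded 1% of UMIs (14 and 68 Sept5-positive cells left), Cst3 stood at 176 against 109 CPM and 103 against 87.9 CPM, and RT1-Da at 1519 against 112 CPM and 114 against 28.6 CPM. In the same cells Rasl10a stood at 253 against 26.2 CPM and 326 against 70.7 CPM, Prf1 at 154 against 850 CPM and 258 against 625 CPM, and Top2a at 319 against 37.9 CPM and 120.3 against 17.2 CPM. Gzmm had 0 UMIs in the 14 cells of library 1, so its 266 CPM there came from the 1 cell left out.

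**Figure D4:**
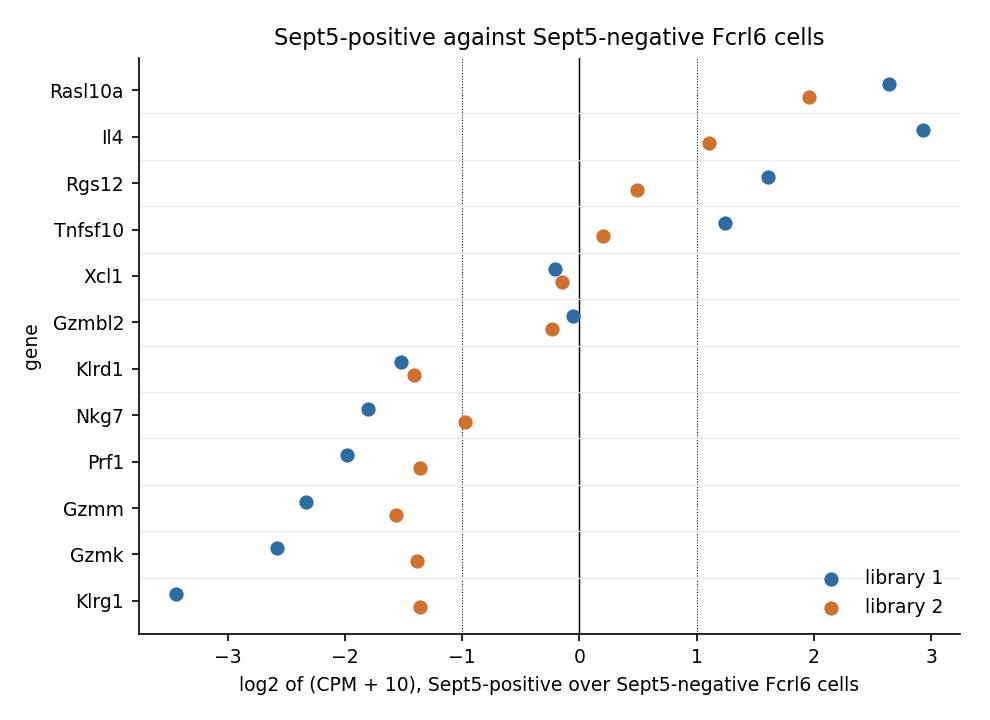
Log2 ratio of CPM plus 10 between Fcrl6 cells with and without a Sept5 UMI for 12 genes, by library, with dotted lines at 2-fold. Rasl10a and Il4 lie above 2-fold and Klrd1, Prf1, Gzmm, Gzmk and Klrg1 below it in both libraries.

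The libraries differed within the Fcrl6 cells, although their shares of these cells were close. Of 5832 genes tested 157 (2.69%) were called: 100 (1.71%) were at least 2-fold higher and 57 (0.977%) at least 2-fold lower in library 2. Without the cells over 1% macrophage, monocyte and dendritic UMIs 72 were higher and 77 lower. With 2 or more Fcrl6 UMIs per cell it was 82 and 93, and among Cd3e-positive cells alone 873 and 974. The excess of higher genes stayed without Scrublet calls (84 and 57), with 3 or more Nkg7 UMIs (102 and 59) and among Cd3e-negative cells alone (107 and 65). It thus depended on which cells were left out. Pi16, a secreted peptidase inhibitor known from regulatory T cells, had 1 UMI in library 1 and 138 UMIs in 56 cells of library 2. In the NK-like cells Pi16 was 23.8 and 30.1 CPM, without such a gap. Fam111a, a nuclear protease of virus restriction, had 2 UMIs in library 1 and 145 in library 2, and the NK-like cells differed the same way, at 4.70 and 87.3 CPM.

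Sept5 was 6.54-fold higher in library 2 (4.32 to 10.3), and its share of positive cells was still 4.08% against 22.3% at 1500 UMIs per cell. Ccdc184 (9.84 and 89.6 CPM), Ap1b1 (28.3 and 147 CPM), Slc22a23 (13.5 and 85.2 CPM) and Cnga4 (11.1 and 72.9 CPM) were higher with it. Genes lower in library 2 were Mark1, a kinase (56.6 and 7.91 CPM), the kinase Sgk1 (345.5 and 94.003 CPM), Klrg1, Gzmk, Gzmm and Cd27, a costimulatory receptor of immature NK cells (247 and 77.3 CPM). Pde4d, a phosphodiesterase, stood at 62.7 and 14.9 CPM. Fcgr2b, an inhibitory Fc receptor, stood at 52.9 and 10.5 CPM, with 8 cells in library 1. For Sept5, Ccdc184, Gzmk, Gzmm, Klrg1, Sgk1 and Cd27 the NK-like cells leaned the same way, with a smaller ratio once 10 CPM were added. As plain CPM the ratio of Sept5 (1.38 and 25.8 CPM) and Ccdc184 (0.552 and 13.6 CPM) was wider in the NK-like cells, on very low levels in library 1. Whether the ratios differed was not tested.

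**Figure D5:**
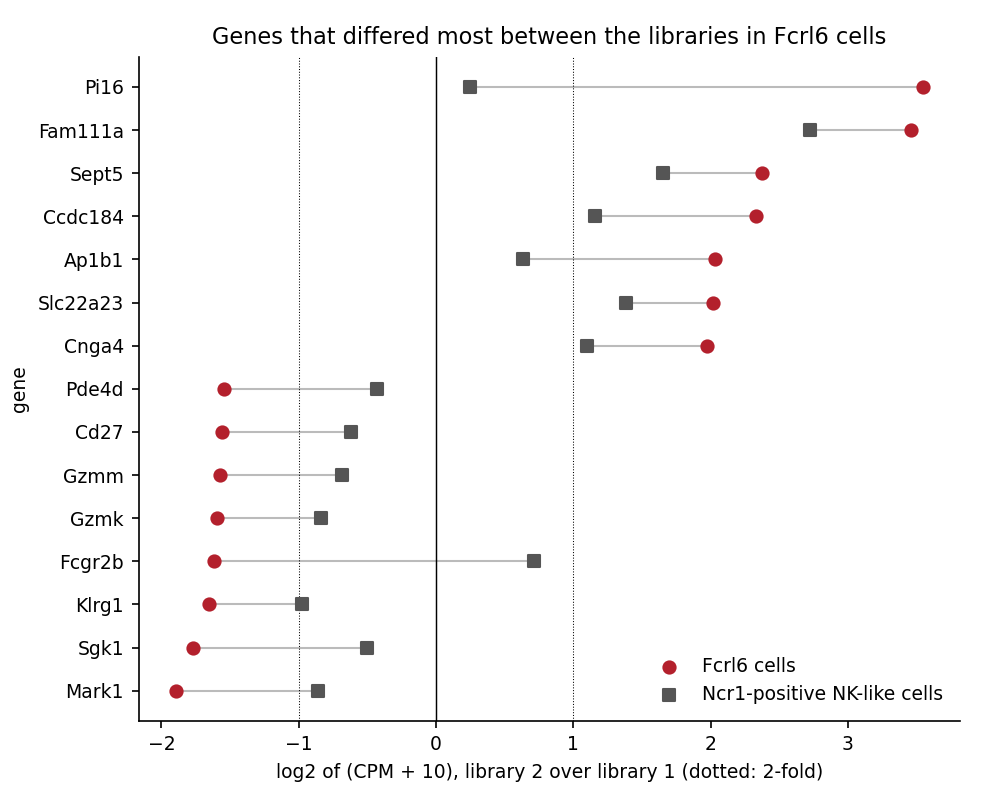
Log2 ratio of CPM plus 10, library 2 over library 1, in Fcrl6 cells and in Ncr1-positive NK-like cells, for the 7 highest genes shown and the 8 lowest in Fcrl6 cells, with dotted lines at 2-fold. Pi16 lies at 3.55 in Fcrl6 cells and 0.25 in NK-like cells, and Fam111a at 3.46 and 2.73.

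Of all 5832 genes tested 2910 were higher and 2922 lower in library 2. Among gene groups, 16 of 20 tested interferon response genes were higher in library 2, with a median of 0.40. Isg15, Irf7 and Ifit3 passed 2-fold. Isg15, a ubiquitin-like interferon product, stood at 70.1 and 163 CPM in the Fcrl6 cells and 65.5 and 160 CPM in the NK-like cells. Residency genes were higher in 13 of 17 cases (median 0.44) and immediate early genes in 14 of 18 (median 0.36), with 1 (Tmem176a) and 0 past 2-fold. The NK-like cells leaned the same way, with summed residency genes of 2598 and 3679 CPM against 3621 and 5286 CPM in the Fcrl6 cells.

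Transcripts of other cell types were present, some in many cells and some in few. Lyz2, a lysozyme of myeloid cells, had a UMI in 50.3% and 46.4% of the Fcrl6 cells, and the lipid carrier Apoe in 59.9% and 47.5%, with 18.5% of the Apoe UMIs of library 1 in its top 5 cells. Genes of the macrophage list summed to 730 and 1527 CPM in the Fcrl6 cells and 1477 and 1380 CPM in the NK-like cells. The dendritic list summed to 1428 and 2163 CPM against 877 and 978 CPM, the neutrophil list to 141 and 58.9 CPM and the monocyte list to 40.6 and 102 CPM in the Fcrl6 cells. Of 1107 UMIs of the class II gene RT1-Da in library 2, 87.0% lay in 5 cells, and 1 cell held 436 of 492 Slpi UMIs. Macrophage, monocyte and dendritic genes exceeded 1% of UMIs in 2 Fcrl6 cells of library 1 and 11 of library 2. Without these cells the Sept5 share was 9.66% and 40.0%, and the Ccl1, Il4 and Rasl10a levels stayed higher in library 2. The B list summed to 3.69 and 9.66 CPM and the mast cell and basophil list, with Fcer1a and Ms4a2 at 0, to 1.23 and 2.64 CPM. The part of these transcripts in the results was not tested beyond leaving out those 13 cells.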

How the data were processed

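The authors deposited 1 matrix of unnormalized UMI counts, which Cell Ranger 4.0.0 wrote, per the file headers. Build, annotation and cell-calling settings: not given in the sources used here. Counts of 1453 symbols on more than 1 line were added, leaving 26976 symbols. A deposited table of 33756 barcodes shares 111 with the matrix, none of them Fcrl6 cells, and was not used. UMIs were summed over cells per library and population and divided by the sum of all UMIs to CPM. Log2 ratios were taken after adding 10 CPM, and folds in the text are plain CPM ratios with exact intervals conditional on both counts. The step was tested on simulated data. Named genes have at least 50 UMIs and 50 CPM on the higher side (20 UMIs within Fcrl6 cells). Mitochondrial, ribosomal, haemoglobin, receptor segment, clone and rule genes were left out, and list members were added by level. Against other cells the naming rule takes the 12 highest and 12 lowest that lay on the same side in both libraries. Within Fcrl6 cells it takes 8 each, without that limit. A gene that this rule picks between the libraries is not reported here. Other genes, and the Sept5 split, were chosen after their values were seen. The members and the 28 gene lists were chosen with earlier results of these data known. Doublets stayed in. Scrublet in scanpy 1.11.5 was run per library and its calls left out as an alternative, beside other pseudocounts, minimum levels, size factors and rule limits. Thinning drew 1500 UMIs per cell at random and left out 2 Fcrl6 cells. Software was Python 3.11.15, numpy 2.4.6, scipy 1.17.1 and pandas 2.3.3.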

Additional observations from a re-analysis of the deposited data

Results flagged for a closer look

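Fcrl6 was also found in Klra22-positive, Nkg7-positive cells, which the rule for Fcrl6 cells leaves out. A UMI of Fcrl6 was present in 28.02% (22.3 to 34.3%) of 232 such cells in library 1 and in 14.0% (10.1 to 18.6%) of 279 in library 2, against 0.486% and 0.857% of B-like cells and 11.2% and 9.24% of Ncr1-positive cells without Cd3e, Klra22 and Cd8b UMIs. Median depths were 5494 and 5904 UMIs in the Klra22-positive and 3123 and 3152 UMIs in the B-like cells.

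The log2 ratio of Fcrl6 cells over Ncr1-positive NK-like cells went opposite ways in the libraries, past 2-fold in both, for Pi16 and Timp2, an inhibitor of matrix proteases. It was -1.59 in library 1 and 1.71 in library 2 for Pi16, and -1.10 and 1.13 for Timp2. The differences between the libraries were not tested. The Fcrl6 cells of library 1 held 1 UMI of Pi16 and 11 of Timp2, and those of library 2 held 138 and 65, in 56 and 17 cells. A single cell held 17 of the 65 Timp2 UMIs, while no cell held more than 8 of the 138 Pi16 UMIs.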

How the results depend on the processing

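No paired analysis was possible because no barcode suffix is tied to a group and each group has 1 sample. With 1 library on each side nothing was tested, and depth and the number of cells limit every value: genes near 20 CPM rest on few UMIs. The count of genes past 2-fold against the NK-like cells (73) was 136 with a pseudocount of 1 CPM, 16 with 50 CPM and 124 in library 2 alone. With 50 CPM it was 153 of 447 against the T-like and 64 of 232 against the Klra22-positive cells. In library 1 alone these comparisons gave 273 higher and 258 lower genes and 144 and 140. For Cd3e-positive against Cd3e-negative cells (356) it was 747 with 1 CPM, 47 with 50 CPM, 640 with 2 or more Fcrl6 UMIs, 576 with 3 or more Nkg7 UMIs, 1369 in library 1 alone and 624 in library 2 alone. Between the libraries (157) it was 362 with 1 CPM, 24 with 50 CPM and 1847 among the 24 Cd3e-positive cells alone. The share of Fcrl6 cells was 0.736% and 0.836% with 2 or more Fcrl6 UMIs, 0.965% in library 2 with 3 or more Nkg7 UMIs, and 0.802% and 0.737% after thinning. Leaving out the cells over 1% macrophage, monocyte and dendritic UMIs was added after seeing the data. Of 1030 values of named genes under all alternatives, 791 stayed within the counting interval, 236 moved past it in size and 3 changed sign. Clec10a in Cd3e-positive over Cd3e-negative cells was -2.39 in library 1 alone. Between the libraries, Gzmk was 0.94 and Gzmm 0.092 among Cd3e-positive cells alone. The alternatives hold fewer cells or another constant. The cause was not tested further.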

Other observations

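Costimulatory and checkpoint receptors of the Fcrl6 cells lay near those of the Ncr1-positive NK-like cells. Of 9 tested genes 3 were higher and 6 lower, with 0 past 2-fold and a median log2 ratio of -0.06. Cd96, a receptor of NK and T cells that binds nectin-family ligands, stood at 686 and 647 CPM against 520 and 478 CPM, and Cd244, the SLAM-family receptor 2B4, at 285 and 447 CPM against 216 and 331 CPM. Lag3 stood at 54.1 and 22.8 CPM against 72.9 and 47.2 CPM, and Pdcd1 had 0 UMIs in the Fcrl6 cells. Nt5e, the ectoenzyme CD73, was 237 CPM in library 1 and 105 CPM in library 2, against 226 and 128 CPM in the NK-like cells.

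Among lymphocyte transcription factors, Ikzf3 stood at 187 and 126 CPM against 237 and 227 CPM, and Stat4, which relays interleukin 12 signals, at 255 and 250 CPM against 381 and 351 CPM. Id2, which NK cells and other innate lymphocytes require, stood at 204 and 348 CPM against 153 and 251 CPM. Of 19 tested factors 0 passed 2-fold. Of the cytokine receptors, Il21r was 2.09-fold higher (1.86 to 2.36) than in the NK-like cells at 188 and 221 CPM, and Ifngr1 stood at 386 and 193 CPM against 544 and 392 CPM.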
